A study of Mus musculus with 6 samples.

Results

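The collagen chain genes are the rows of the gene table whose symbol is Col, a type number, the letter a and a chain number. This rule found 44 of the 49585 genes in the table. By the structures their products build, 11 belong to the fibrillar class, 9 to the basement membrane class, 9 to the FACIT class, 6 to the beaded class and 4 to the transmembrane class, and 5 others were kept apart. Libraries were made from thoracic lateral plate mesenchymal cells (LPMs) of C57BL/6 embryos (C57BL/6NCrSlc in the study's methods) at E10.5, sorted by fluorescence for Prx1-Cre-activated Tdtomato. The 3 heterozygous samples were Prx1-Cre Ebf3 flox/+ and the 3 Prx1-Cre Ebf3-KO samples were Prx1-Cre Ebf3 flox/flox, so that both genotypes carried the Cre driver, the R26R Tdtomato reporter and at least 1 floxed Ebf3 allele. The comparison therefore set loss of both alleles in Prx1-Cre-active cells against loss of 1, without Cre-negative or wild-type cells. The labels do not say whether replicates came from separate embryos or from pools, and p-values measure only the spread between these samples.

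Collagens are triple-helical proteins built from 3 chains. Fibrillar collagens form the fibres of dermis, tendon and bone, and types I and III are the main products of embryonic mesenchyme. Type IV chains form the sheet of the basement membrane, FACIT collagens (fibril-associated, with an interrupted triple helix) sit on the surface of fibrils, type VI chains form beaded filaments around cells, and transmembrane collagens are held in the plasma membrane. Their mRNAs are long and the chains need dedicated hydroxylases and chaperones before secretion. The study asked what Ebf3, a transcription factor of the early B-cell factor family, does in the thoracic LPMs from which the sternum arises, and the collagen genes were read here before cartilage or bone of the sternum exists.

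The collagen genes did not separate the genotypes. Of the 44 genes, 29 passed the count minimum of 10 counts in at least 3 libraries, and 0 of these 29 passed an adjusted p of 0.05 in edgeR's quasi-likelihood test with Benjamini-Hochberg adjustment, where the share of all 10891 genes tested was 0% (also 0 in DESeq2 and limma-voom). At an unadjusted p of up to 0.05, 1 of the 29 was lower in KO samples (Col16a1) and 0 were higher. Among all genes tested, 0.771% were lower and 1.38% were higher at that threshold. Ebf3, the deleted gene, did not pass an adjusted p of 0.05 either. The absence of passing collagens therefore does not show that they were unchanged. In 0 of 29 did all KO libraries lie on one side of all heterozygous libraries, against 7.46% of all genes tested. What did vary was the library: most collagens stood high or low together in the same replicates of either genotype.

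Promoters of 3 genes of the fibrillar class, the class that holds most collagen counts, are given here as examples that differ in base composition and motifs. Each is the 250 bases upstream of the RefSeq start site on GRCm38.p6, plus strand, with matches to CCAAT, to the GC box GGGCGG and to the EBF core CCCNNGGG on either strand in capitals.
Col3a1, chr1:45311288-45311537: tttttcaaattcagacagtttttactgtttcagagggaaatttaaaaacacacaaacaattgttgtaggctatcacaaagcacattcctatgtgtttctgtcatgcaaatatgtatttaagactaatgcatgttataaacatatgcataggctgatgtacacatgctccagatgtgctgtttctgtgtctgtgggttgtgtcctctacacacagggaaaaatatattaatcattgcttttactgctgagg
Col5a1, chr2:27886175-27886424: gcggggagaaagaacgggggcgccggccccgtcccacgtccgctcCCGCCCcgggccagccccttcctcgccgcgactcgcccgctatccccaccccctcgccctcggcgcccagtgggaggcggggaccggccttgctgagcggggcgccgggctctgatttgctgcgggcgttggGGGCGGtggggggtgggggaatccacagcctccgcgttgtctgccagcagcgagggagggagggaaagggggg
Col11a1, chr3:114030290-114030539: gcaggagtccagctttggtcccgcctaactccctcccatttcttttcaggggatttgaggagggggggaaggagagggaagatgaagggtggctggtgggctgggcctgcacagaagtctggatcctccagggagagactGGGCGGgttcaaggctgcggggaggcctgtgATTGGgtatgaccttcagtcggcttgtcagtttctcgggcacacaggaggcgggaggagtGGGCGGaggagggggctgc
The Col3a1 window, of the type III chain, held none of these motifs and was 35.2% GC. The Col5a1 window, of a type V chain that starts fibrils, held 2 GC boxes and no CCAAT and was 76.4% GC. The Col11a1 window, of a type XI chain best known from cartilage, held 2 GC boxes and 1 CCAAT and was 62.4% GC. RefSeq windows were found for 35 of the 44 collagen genes, 38 windows in all. The EBF core occurred in 5 of the 38 (13.2%), against 11.8% of 32851 promoters of the same length. The core with T before and A after it, the full EBF palindrome, occurred in 0 of 38, against 0.779% of promoters. CCAAT occurred in 13 of 38 (34.2%) against 33.9%, and the GC box in 22 of 38 (57.9%) against 32.7%. Of the 8 fibrillar genes with a window, 6 held a GC box, and Col3a1 and Col24a1 held none. The 5 genes with an EBF core were Col4a2, Col6a5, Col6a6, Col9a2 and Col17a1, of which Col4a2 alone passed the count minimum.

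Each library held between 2088091 and 3525565 counts over genes, from 36931792 to 44536132 reads of which 83.4 to 88.4% were mapped. Gene counts were 28.2, 23.5 and 22.1% of mapped pairs in heterozygous replicates 1 to 3 and 21.7, 17.6 and 33.5% in KO replicates 1 to 3. The top gene took 4.31% of counts in KO replicate 2 (Lars2) and 0.722% in KO replicate 3 (Hsp90ab1). The part of these differences in the collagen levels was not tested. Ebf3 itself was at 94.6, 98.6 and 105.6 CPM (the depth-scaled count, here over TMM-scaled library totals) in heterozygous replicates 1 to 3 and at 74.0, 43.1 and 60.7 CPM in KO replicates 1 to 3. All KO values were below all heterozygous values (log2 fold change -0.74, SE 0.18, unadjusted p = 0.00161 in edgeR). Ebf3 did not pass after adjustment (adjusted p = 0.99995 in edgeR) and was still counted in each KO library. The floxed exons are a part of the gene and the counts cover all of it. All 8 lateral plate and limb mesenchyme genes were counted in every library, with a sum of 1820 to 2025 CPM in heterozygous and 1592 to 2007 CPM in KO samples, and 8 of 8 passed the count minimum. Of these, 6 had a log2 fold change below 0 and 2 above (median -0.20). Only Hand2 reached an unadjusted p of 0.05, with overlap (log2 fold change -0.42, SE 0.18, unadjusted p = 0.0452 in edgeR). It did not pass after adjustment, and 2.15% of all genes tested reached that unadjusted threshold. Of 6 chondrogenic and sclerotome genes, only Sox9, the chondrogenic transcription factor, passed the count minimum. The cartilage matrix genes Acan and Matn1 were at 0 in all libraries but 1 each. Pax1 had few counts and stood at 0.00 to 1.24 CPM in heterozygous and 3.47 to 9.09 CPM in KO samples. Other cell types were present at low levels that differed between libraries. The 7 endothelial genes (5 past the minimum, none at 0 throughout) summed to 61.3 to 187 CPM in heterozygous and 70.9 to 232 CPM in KO samples, and the 5 hepatic genes (4 past the minimum) to 29.0 to 72.4 CPM and 8.92 to 262 CPM. The highest endothelial and hepatic sums lay in replicate 3 of each genotype. The 6 neural and neural crest genes (1 past the minimum, Sox2 at 0 throughout) summed to 3.73 to 14.4 CPM in heterozygous and 14.9 to 38.1 CPM in KO samples, without overlap. The gene past the minimum was Nefl, a neurofilament chain (log2 fold change 1.77, SE 0.41, unadjusted p = 0.00112, adjusted p = 1.00 in edgeR). Nefl was at 6.76, 2.49 and 6.39 CPM in heterozygous and 13.6, 13.4 and 26.2 CPM in KO replicates. No other gene of this neural group separated the genotypes. The part of this list in the collagen levels was not tested. Fewer cells of a type and less RNA per cell cannot be told apart in such bulk libraries.

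All collagen genes together took 0.694, 0.415 and 0.503% of the gene counts in heterozygous replicates 1, 2 and 3 and 0.679, 0.343 and 0.479% in KO replicates 1, 2 and 3. The mean was 0.54% ± 0.14 (SD, n = 3) in heterozygous and 0.50% ± 0.17 (SD, n = 3) in KO samples. Replicate 1 was the highest and replicate 2 the lowest in both genotypes, and the genotypes overlapped. Within a genotype the share differed 1.67-fold between heterozygous and 1.98-fold between KO libraries, whereas the KO mean was 0.931 of the heterozygous mean. Fibrillar genes made up most of it, at 0.529, 0.317 and 0.383% of gene counts in heterozygous replicates 1 to 3 and 0.521, 0.253 and 0.366% in KO replicates 1 to 3. Basement membrane genes took 0.0952, 0.0414 and 0.0572% in heterozygous and 0.0778, 0.0457 and 0.0577% in KO replicates. The FACIT genes took 0.0206 to 0.0419%, the beaded genes 0.00637 to 0.0174% and the transmembrane genes 0.00479 to 0.00874%. In all 5 classes the highest library of the 6 was replicate 1 of one genotype or the other, and the genotypes overlapped.

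**Figure D1:**
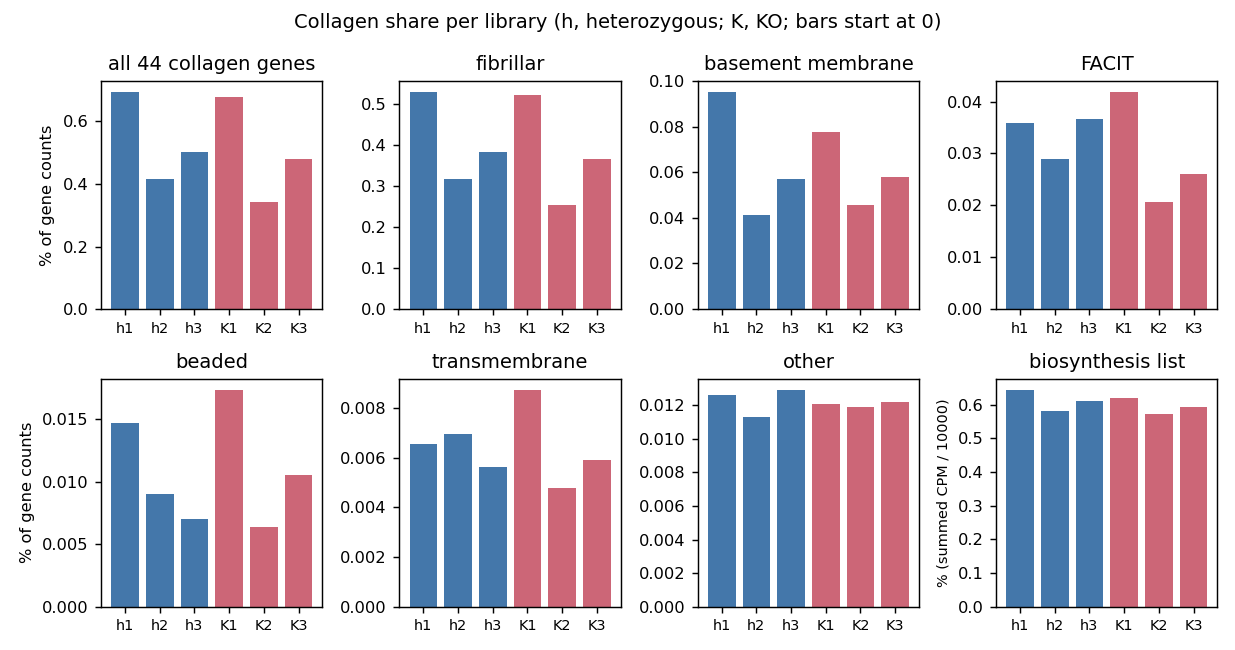
Share of gene counts (%, bars from 0) taken by all 44 collagen genes, by each class, and by the collagen biosynthesis list, in heterozygous libraries h1 to h3 (blue) and KO libraries K1 to K3 (red), 1 bar per library with no error bars. All collagens took 0.694% in heterozygous replicate 1 and 0.679% in KO replicate 1, while the other 4 libraries lay between 0.343 and 0.503%, and the biosynthesis list was nearly level.

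Of the fibrillar class, 9 of 11 genes passed the count minimum. 3 of the 9 had a log2 fold change above 0 and 6 below, with a median of -0.17, and 0 reached an unadjusted p of 0.05. Col1a1 (chr11:94936224-94953042), the pro-alpha1 chain of type I collagen, was at 1634, 969 and 1318 CPM in heterozygous replicates 1, 2 and 3 and at 1591, 757 and 936 CPM in KO replicates 1, 2 and 3. Replicate 1 was the highest and replicate 2 the lowest of each genotype, and the genotypes overlapped (log2 fold change -0.26, SE 0.26, unadjusted p = 0.344 in edgeR). Col1a2 (chr6:4504814-4541544), the pro-alpha2 chain that joins 2 alpha1 chains in the type I trimer, was at 786, 525 and 653 CPM in heterozygous and 870.1, 444 and 652 CPM in KO replicates, in the same order. Its group means were 654 ± 131 and 655 ± 213 CPM (SD, n = 3), a log2 fold change of 0.00 (SE 0.22). Col3a1 (chr1:45311538-45349706), the single chain of type III collagen, was at 1752, 1055 and 1118 CPM in heterozygous and 1622, 908 and 1304 CPM in KO replicates. For Col3a1, KO replicate 2 lay below all heterozygous libraries and the other KO values lay within their range (log2 fold change -0.03, SE 0.23). Together these 3 genes held 59.5 to 62.1% of the collagen counts in every library, so that their part in the whole changed little while the whole changed between libraries.

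The type V chains start and thin type I fibrils. Col5a1 (chr2:27886425-28039514) was at 425, 184 and 233 CPM in heterozygous replicates 1, 2 and 3 and at 368, 153 and 204 CPM in KO replicates 1, 2 and 3. Both first replicates stood above the other 4 libraries (log2 fold change -0.22, SE 0.34). Col5a2 (chr1:45374321-45503282), which lies 24614 bases from Col3a1 on chromosome 1, was at 321, 196 and 198 CPM in heterozygous and 278, 111 and 247 CPM in KO replicates. The lowest value was KO replicate 2, and the other KO values lay within the heterozygous range (log2 fold change -0.17, SE 0.30). Col5a3 was below the minimum, with 12 counts over all libraries.

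Col2a1 and Col11a1 are the fibrillar chains best known from cartilage. Col2a1 (chr15:97975602-98004695) was at 113, 65.9 and 119 CPM in heterozygous and at 159, 92.2 and 92.7 CPM in KO replicates. KO replicate 1 was the highest and heterozygous replicate 2 the lowest, with overlap (log2 fold change 0.20, SE 0.25, unadjusted p = 0.442 in edgeR). Col11a1 (chr3:114030540-114220718) was at 217, 178 and 230.4 CPM in heterozygous and at 255, 127 and 101 CPM in KO replicates. Here KO replicates 2 and 3 lay below all heterozygous libraries and KO replicate 1 above them all (log2 fold change -0.38, SE 0.28, unadjusted p = 0.206 in edgeR). Without KO replicate 1 the log2 fold change of Col11a1 was -0.88, at an unadjusted p = 0.000109 (adjusted p = 0.580) in edgeR. The partner chain Col11a2 had 29 counts in all. Of the long fibrillar chains, Col27a1 (chr4:63214004-63334991) was at 28.9, 13.7 and 23.0 CPM in heterozygous and 27.7, 23.3 and 16.0 CPM in KO replicates, with overlap (log2 fold change 0.00, SE 0.36), and Col24a1 was at 4.96 to 16.5 CPM.

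**Figure D2:**
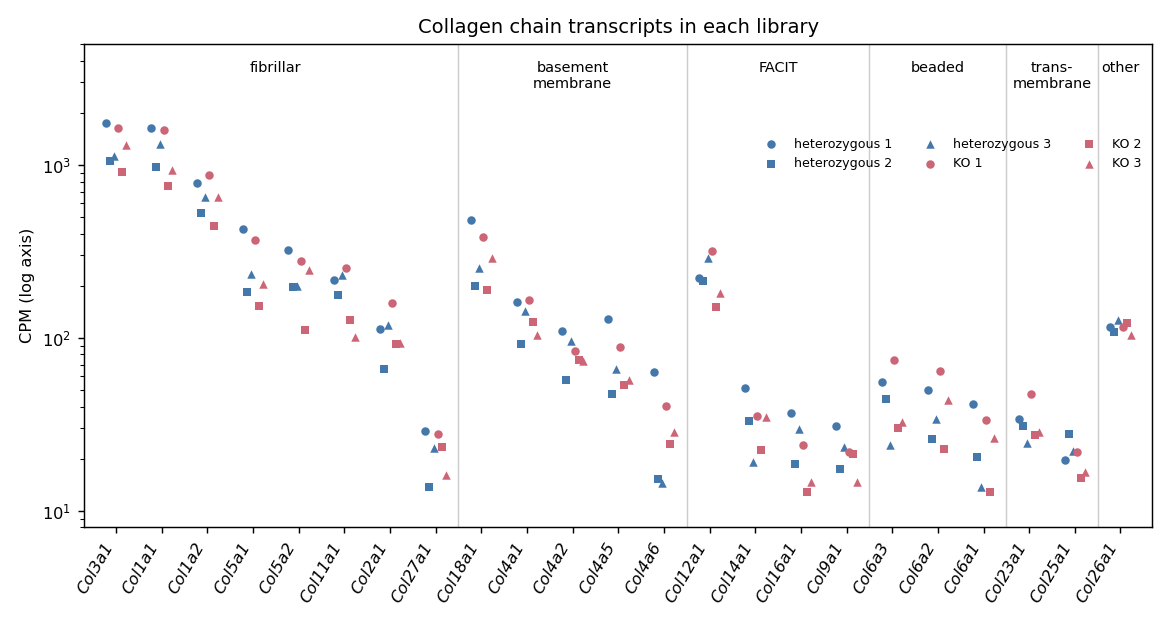
Level of the named collagen genes in each library (CPM, log axis), by class and by mean level within a class, with heterozygous replicates in blue, KO replicates in red and the replicate number as circle, square or triangle. Each point is 1 library. For Col5a1 the circles, at 425 and 368 CPM, lie above the squares and triangles, at 153 to 233 CPM, and no gene has its blue points apart from its red ones.

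Of the basement membrane class, 7 of 9 genes passed the minimum, 1 with a log2 fold change above 0 and 6 below (median -0.11), and 0 at an unadjusted p of 0.05. Col18a1 (chr10:77052178-77166548), a multiplexin whose carboxyl end gives endostatin, had the highest RPKM (reads scaled to transcript length and library size) of the class in every library and was at 478, 199 and 252 CPM in heterozygous replicates 1, 2 and 3 and 383, 188 and 290.4 CPM in KO replicates 1, 2 and 3. Within each genotype it followed the order of libraries seen for Col1a1, with overlap (log2 fold change -0.11, SE 0.31). Col4a1 (chr8:11198423-11312826) and Col4a2 (chr8:11312805-11449287) encode the chains of the commonest type IV trimer and lie head to head. Col4a1 was at 161, 92.4 and 143 CPM in heterozygous and 166, 124 and 104 CPM in KO replicates. Col4a2 was at 110.0, 56.8 and 96.2 CPM in heterozygous and 83.9, 73.9 and 73.4 CPM in KO replicates. For both, the KO values lay within or near the heterozygous range (log2 fold changes -0.01, SE 0.22, and -0.19, SE 0.21). The annotated genes overlap by 22 bases, where reads of one cannot be told from those of the other, since a strand setting of the counting is not given in the sources used here. Without heterozygous replicate 2, the log2 fold change of Col4a2 was -0.42 (unadjusted p = 0.0227, adjusted p = 0.999 in edgeR).

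The X-linked type IV pair was more uneven. Col4a5 (chrX:141475385-141689234) was at 128, 47.2 and 66.0 CPM in heterozygous and 88.0, 53.5 and 56.8 CPM in KO replicates, with overlap (log2 fold change -0.30, SE 0.32). Col4a6 (chrX:141165403-141474076), whose start lies 1308 bases from that of Col4a5, was at 63.0, 15.3 and 14.5 CPM in heterozygous and 40.5, 24.3 and 28.7 CPM in KO replicates. Heterozygous replicate 1 stood above every other library and heterozygous replicates 2 and 3 below all of them (log2 fold change -0.03, SE 0.47). The direction for Col4a6 was not stable. Its log2 fold change was 1.07 without heterozygous replicate 1 (unadjusted p = 0.00324, adjusted p = 1.00 in edgeR), 0.10 without KO replicate 2 and 0.037 without KO replicate 3. Col15a1, the other multiplexin, was at 1.24 to 5.96 CPM, and Col7a1, of the anchoring fibril, at 2.21 to 6.76 CPM. The kidney and lung type IV chains were at or near 0, with 0 counts for Col4a3 and 18 for Col4a4. Endothelial cells also make type IV and type XVIII collagen. The endothelial marker sum was 126, 61.3 and 187 CPM in heterozygous and 126, 70.9 and 232 CPM in KO replicates, highest in replicate 3, whereas Col18a1, Col4a5 and Col4a6 were highest in replicate 1 of each genotype. Its part in these levels was not tested.

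The FACIT class held the only collagen gene past an unadjusted threshold. All 5 of its 9 genes past the count minimum had a log2 fold change below 0 (median -0.21), as did 49.8% of all genes tested. With 1 library left out, the log2 fold changes of Col12a1, Col14a1 and Col22a1 reached up to 0.032, 0.25 and 0.28. Col16a1 (chr4:130047840-130099283), the type XVI chain of dermal and cartilage fibrils, was at 36.9, 18.6 and 29.8 CPM in heterozygous replicates 1, 2 and 3 and at 24.0, 12.9 and 14.6 CPM in KO replicates 1, 2 and 3. KO replicates 2 and 3 lay below all heterozygous libraries, while KO replicate 1 lay above heterozygous replicate 2, so the groups overlapped. The means were 28.4 ± 9.18 and 17.2 ± 5.96 CPM (SD, n = 3), a log2 fold change of -0.74 (SE 0.30) at an unadjusted p = 0.0320 (adjusted p = 1.00) in edgeR. In the same test 2.15% of all genes tested, 234 of 10891, reached an unadjusted p of 0.05, and 1 of 29 collagen genes is 3.45%. Col16a1 passed the unadjusted threshold in DESeq2 (unadjusted p = 0.0276, where 1.15% of all genes passed) and limma-voom (unadjusted p = 0.0305, 2.3%) and missed it on log2 RPKM with limma (unadjusted p = 0.110 and 0.128, with pseudocounts of 1 and 0.1). In edgeR it also missed it without heterozygous replicate 1 (log2 fold change -0.49, unadjusted p = 0.160), heterozygous replicate 3 (-0.71, unadjusted p = 0.0687), KO replicate 2 (-0.60, unadjusted p = 0.0941) or KO replicate 3 (-0.62, unadjusted p = 0.110).

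Col12a1 (chr9:79598991-79718831), a FACIT chain of tendon, fascia and periosteum, had the highest RPKM of the class in every library and was at 221, 214 and 290.4 CPM in heterozygous and 317, 150.2 and 180.4 CPM in KO replicates. KO replicates 2 and 3 were the lowest and KO replicate 1 the highest (log2 fold change -0.16, SE 0.24). Col14a1 (chr15:55307750-55520803), found on tendon and skin fibrils, was at 51.0, 33.2 and 19.2 CPM in heterozygous and 35.1, 22.3 and 35.0 CPM in KO replicates, with overlap (log2 fold change -0.16, SE 0.31). Col9a1 (chr1:24177610-24252684), a chain of the type IX collagen that covers type II fibrils in cartilage, was at 30.7, 17.4 and 23.4 CPM in heterozygous and 21.9, 21.3 and 14.6 CPM in KO replicates. Its KO values lay inside the heterozygous range but for KO replicate 3, the lowest (log2 fold change -0.34, SE 0.27). Its partner chains Col9a2 and Col9a3, which share the type IX trimer, stayed below the minimum with 37 and 31 counts over all libraries. Col22a1, known from the junction of muscle and tendon, was at 2.97 to 13.6 CPM. Col19a1 and Col20a1 had 1 and 3 counts in all.

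Of the beaded class, the 3 type VI chains that build the usual trimer passed the minimum. Col6a1 (chr10:76708792-76726168) was at 41.5, 20.3 and 13.6 CPM in heterozygous replicates 1, 2 and 3 and 33.5, 12.9 and 26.2 CPM in KO replicates 1, 2 and 3. Col6a2 (chr10:76595762-76623630) was at 50.1, 26.1 and 34.1 CPM in heterozygous and 64.0, 22.8 and 43.9 CPM in KO replicates. Col6a3 (chr1:90765923-90843971) was at 55.6, 44.3 and 23.8 CPM in heterozygous and 74.8, 30.2 and 32.5 CPM in KO replicates. All 3 were highest in replicate 1 of each genotype, all 3 were lowest of the KO libraries in replicate 2, and each overlapped between genotypes. Their log2 fold changes were -0.07 (SE 0.40), 0.24 (SE 0.33) and 0.13 (SE 0.36). The alternative chains Col6a4, Col6a5 and Col6a6, which lie side by side on chromosome 9, had 0, 2 and 0 counts.

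Of the transmembrane class, 3 of 4 genes passed the minimum. Col23a1 (chr11:51289920-51583918) was at 33.8, 30.7 and 24.7 CPM in heterozygous and 47.1, 27.3 and 28.7 CPM in KO replicates, where KO replicate 1 alone stood above the heterozygous range (log2 fold change 0.20, SE 0.24, unadjusted p = 0.421 in edgeR). Col25a1 (chr3:130131501-130599877), which is needed for motor axons to reach muscle, was at 19.7, 27.8 and 22.1 CPM in heterozygous and 21.9, 15.4 and 16.8 CPM in KO replicates. KO replicates 2 and 3 were the lowest and heterozygous replicate 2 the highest, an order unlike that of most collagens (log2 fold change -0.36, SE 0.23, unadjusted p = 0.157 in edgeR). Col13a1, of the neuromuscular junction, was at 6.94 to 16.1 CPM, and Col17a1, of the hemidesmosome of skin, had 14 counts in all.

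Outside these classes, Col26a1 (chr5:136741759-136883209) was at 116, 108 and 126 CPM in heterozygous and 115, 121 and 104 CPM in KO replicates. It was the flattest collagen gene, with a highest value 1.21 times the lowest (log2 fold change -0.04, SE 0.13). The short-chain Col8a2, of the type VIII network, had 28, 11 and 12 counts in heterozygous and 9, 2 and 38 counts in KO replicates, and its partner Col8a1 had 27 counts. Col28a1 had 1 count, and Col10a1, the mark of hypertrophic cartilage, had 0. In all, 4 collagen genes had 0 counts in every library (Col4a3, Col6a4, Col6a6 and Col10a1). Col10a1 had an RPKM of 0.055, 0.062 and 0.058 in heterozygous replicates 1 and 2 and KO replicate 1, and Col4a3 one of 0.019 in KO replicate 3, although their counts were 0. By counts these genes were not detectable at this depth, since 3 counts, the limit that a count of 0 allows, correspond to 0.851 to 1.44 CPM of the unscaled libraries, a limit that covers counting error only. A further 11 had some counts but missed the minimum.

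Across the 29 genes tested, 21 had a log2 fold change below 0 and 8 above 0, with a median of -0.16 and a range of -0.74 to 0.24. Of all genes tested 49.8% lay below 0, with a median of 0.00. The direction of this median rested on single libraries: without heterozygous replicate 1, 20 of 28 genes lay above 0 (median 0.20), and without KO replicate 2 the median was 0.04. Without KO replicate 1, 26 of 28 lay below 0 (median -0.30), and 5 were lower at an unadjusted p of up to 0.05 in edgeR (Col1a1, Col5a1, Col11a1, Col12a1 and Col16a1). These were 17.9% of the collagen genes, where 7.08% of all genes passed, and 0 of them passed after adjustment. The collagens were also measured less precisely between replicates than other genes. Their median SE was 0.31 against 0.21 for all genes tested, and their median biological coefficient of variation 0.246 against 0.166.

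**Figure D3:**
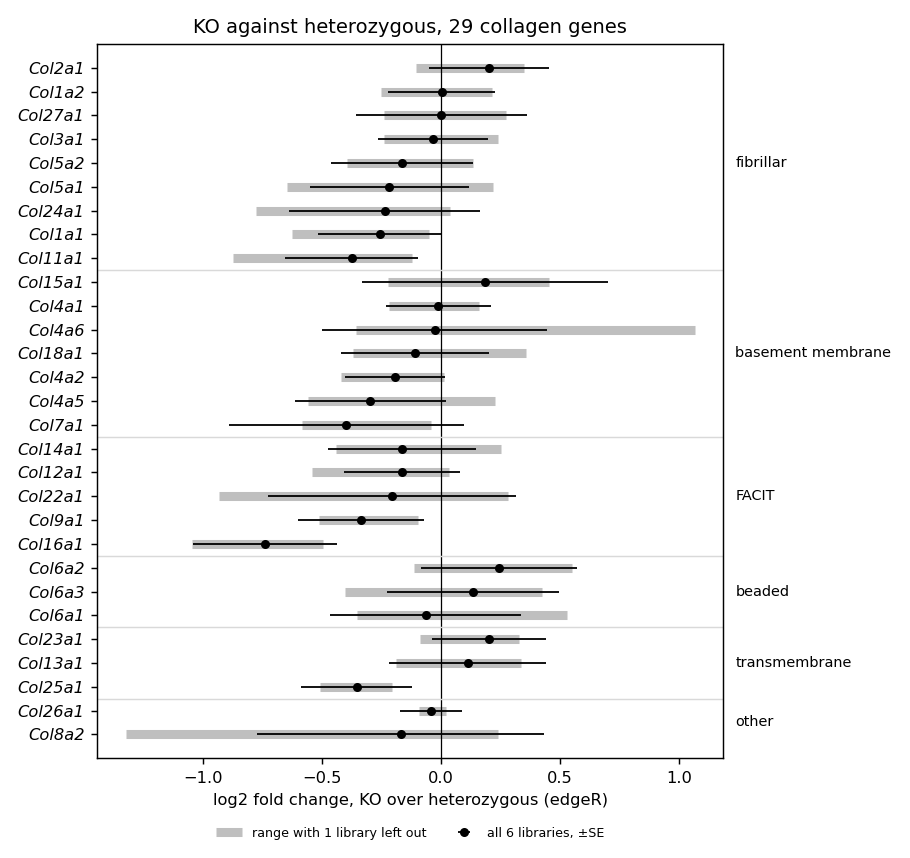
Log2 fold change of KO over heterozygous samples for the 29 collagen genes tested, by class, with points and SE bars from edgeR on all 6 libraries and grey bars for the range when 1 library was left out. The points run from -0.74 (Col16a1) to 0.24 (Col6a2), and most grey bars cross 0.

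The common movement was by library. The highest of the 6 libraries was replicate 1 of one genotype or the other for 25 of the 29 genes, against 33.6% of all genes tested. Among heterozygous libraries, replicate 1 was the highest for 22 of 29 collagen genes (34.3% of all genes) and replicate 2 the lowest for 21 of 29 (33.6%). Among KO libraries, replicate 1 was the highest for 26 of 29 (35.5%) and replicate 2 the lowest for 21 of 29 (36.1%). The ratio of the highest to the lowest library had a median of 2.54 over collagen genes and 1.58 over all genes tested. The labels do not say that equal numbers in the 2 genotypes mark shared samples or a shared day. The skeletal muscle markers also had their highest sum in KO replicate 1, 146 CPM against 7.04 to 32.9 CPM in the other libraries, nearly all of it from Actc1 (143 CPM). Myod1, Myog and Pax7 were at or near 0 in every library, and 1 of the 6 muscle genes passed the count minimum. The 5 epithelial genes (4 past the minimum, Krt5 at 0 throughout) summed to 376 CPM in heterozygous replicate 1 and to 234 to 276 CPM elsewhere. Most of this was Krt8 and Krt18, at 214 and 141 CPM in heterozygous replicate 1, where Epcam and Cdh1 were at 7.99 and 12.6 CPM. The part of these markers in the collagen levels was not tested.

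Transcript length moved in the same order. The longest annotated transcripts of the 29 genes had a median of 6450 bases, against 3633 bases for the 10673 of 10891 tested genes with a length. When all those genes were ordered by length and cut into 5 groups of nearly equal size, the longest group had median log2 deviations from the mean of the 6 libraries of 0.13, -0.04 and 0.03 in heterozygous replicates 1, 2 and 3 and 0.17, -0.16 and -0.10 in KO replicates 1, 2 and 3. The shortest group ran the other way, at -0.13, 0.08 and -0.01 and at -0.16, 0.15 and 0.14. Long transcripts were thus higher in replicate 1 of both genotypes and lower in KO replicates 2 and 3. The collagen genes deviated further, with medians of 0.48, -0.19 and 0.07 in heterozygous and 0.45, -0.46 and -0.15 in KO replicates. With the trend on length taken out in each library, they were 0.39, -0.16 and 0.05 and 0.32, -0.32 and -0.13, and with GC content also taken out 0.30, -0.11 and 0.05 and 0.27, -0.33 and -0.10. The order of the libraries stayed and the deviations shrank. With either offset 1 collagen gene, Col16a1, passed the unadjusted threshold in edgeR (unadjusted p = 0.0204 and 0.0186), where 2.75% and 2.84% of all genes did.

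**Figure D4:**
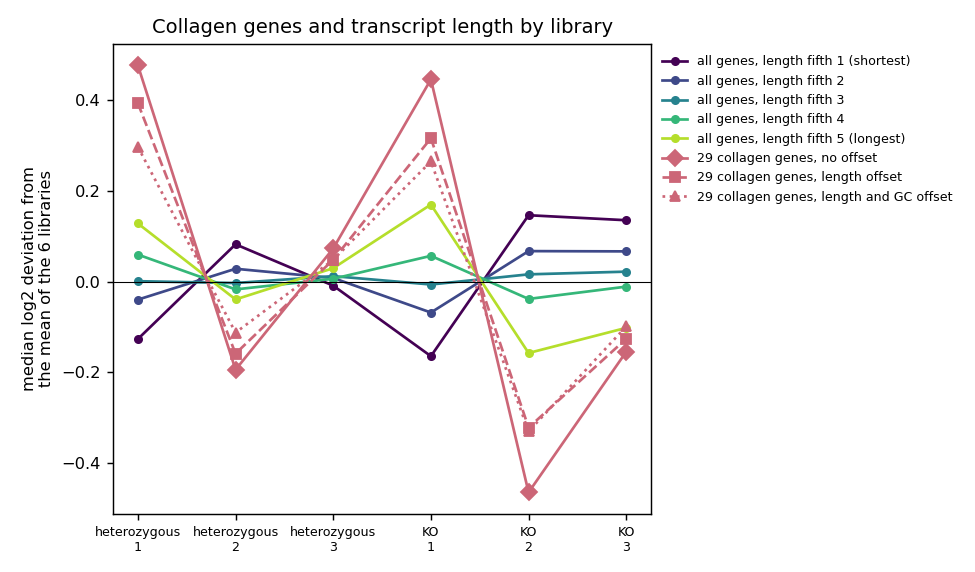
Median log2 deviation from the mean of the 6 libraries (y axis) in each library (x axis) for 5 groups of all genes by transcript length and for the 29 collagen genes without an offset, with a length offset and with a length and GC offset; lines only join the values of 1 set. The group of longest transcripts is at 0.13 and 0.17 in the first replicates and the collagen genes at 0.48 and 0.45, or 0.30 and 0.27 with both offsets.

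Levels of different chains were compared per length, as the deposited RPKM. Col1a1 had the highest RPKM of the collagen genes in every library, 19.7 to 70.1, and Col3a1 the next, 15.8 to 50.3. Col1a2 followed at 6.24 to 18.5 and Col18a1 at 5.45 to 21.6 RPKM, and these neighbours changed places in heterozygous replicate 1. Then came Col5a1 (3.23 to 14.5), Col5a2 (1.96 to 9.41), Col4a1 (3.32 to 7.31), Col11a1 (2.24 to 6.30), Col26a1 (3.53 to 6.12) and Col2a1 (2.56 to 5.78 RPKM), whose ranges overlap. The RPKM values are not the counts divided by length alone, since 2401 to 3003 genes per library had an RPKM above 0 with a count of 0. Apart from the alternative test on log2 RPKM, they were therefore read only as ratios within a library or as ranges.

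Ratios between chains overlapped between genotypes for 10 of the 12 computed, most of them of chains of 1 collagen type, with Col3a1 and Col5a1 each also set against Col1a1. The RPKM ratio of Col1a2 to Col1a1 was 0.260, 0.293 and 0.268 in heterozygous replicates 1, 2 and 3 and 0.296, 0.317 and 0.377 in KO replicates 1, 2 and 3. All KO values were above all heterozygous ones, the nearest pair being 0.293 and 0.296. In raw counts the ratio was 0.481, 0.541 and 0.495 in heterozygous and 0.547, 0.587 and 0.696 in KO replicates. It differs from the RPKM ratio only by a fixed length factor, so its order is no second check. With 3 libraries against 3 an exact two-sided permutation test cannot go below p = 0.1. The type IV ratio Col4a2 to Col4a1 was 0.479 to 0.640 over all libraries and Col4a6 to Col4a5 was 0.185 to 0.425. The type VI ratios were 0.635 to 1.32 for Col6a2 to Col6a1 and 0.455 to 0.859 for Col6a3 to Col6a1, and the ratio of Col5a2 to Col5a1 was 0.607 to 1.02. In each of these the genotypes overlapped. The other separated ratio, Col8a2 to Col8a1, was 5.31, 6.26 and 13.7 in heterozygous and 3.41, 1.14 and 3.33 in KO replicates, but rested on the 27 counts of Col8a1.

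**Figure D5:**
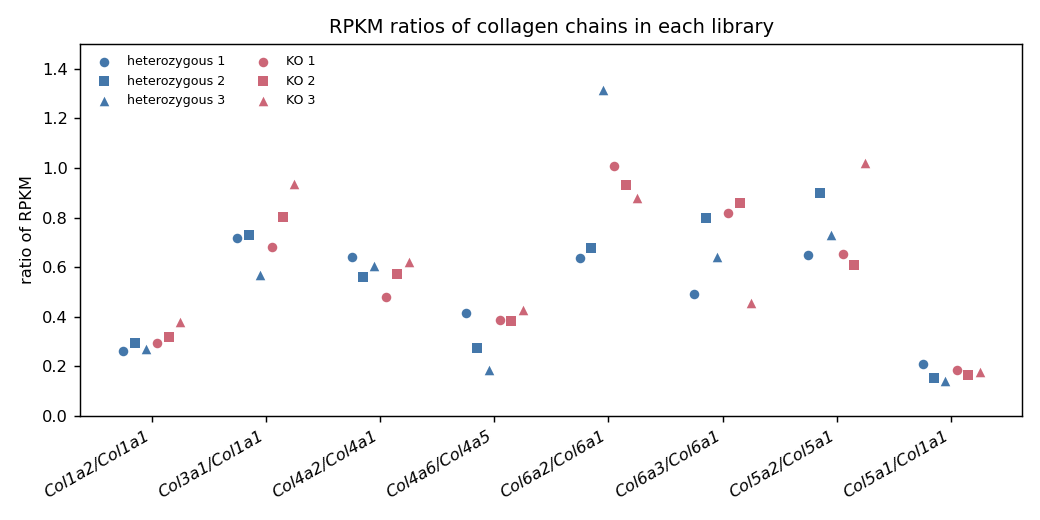
Ratio of RPKM (y axis, from 0) between pairs of collagen chains in each library, heterozygous replicates in blue and KO replicates in red, 1 point per library. For Col1a2 to Col1a1 the KO points, 0.296 to 0.377, lie above the heterozygous points, 0.260 to 0.293, and the other 7 pairs shown overlap.

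The genes listed for collagen synthesis, export, crosslinking, binding and regulation varied less between libraries than the collagens, and about as much as all genes tested. Of 54 listed, 46 passed the minimum, 21 with a log2 fold change above 0 and 25 below (median -0.02), and their summed level was 5820 to 6451 CPM in heterozygous and 5715 to 6188 CPM in KO samples. The highest sum was 1.13 times the lowest. The median gene's highest library was 1.52 times its lowest, against 2.54 times for the collagens and 1.58 times for all genes tested. Crosslinking genes were less level. They summed to 242, 174 and 206 CPM in heterozygous and 274, 175 and 222 CPM in KO replicates. Within each genotype this was the library order of Col1a1. Most of the sum was Loxl2, at 183, 116 and 125 CPM in heterozygous and 205, 113 and 139 CPM in KO replicates. Lox and Loxl1 were instead highest in replicate 3 of both genotypes. The highest sum of the crosslinking genes was 1.57 times the lowest, against 1.08 to 1.27 times for the other groups of the list. Serpinh1, the collagen chaperone HSP47, was at 1458, 1342 and 1372 CPM in heterozygous and 1351, 1285 and 1315 CPM in KO replicates. P4hb, the beta subunit of prolyl 4-hydroxylase, was at 897 to 1031 CPM over all libraries. Serpinh1 kept the order of libraries seen for Col1a1 within each genotype, but its highest value was only 1.13 times its lowest, and the genotypes overlapped for both genes.

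By group, the 14 tested hydroxylase and collagen-modifying genes divided into 7 above and 7 below 0, the 10 folding and export genes into 2 and 8, the 7 procollagen processing genes into 5 and 2, the 4 crosslinking genes into 3 and 1, the 5 receptors into 1 and 4 and the 7 regulators into 3 and 4, with Creb3l1 counted both under folding and export and as a regulator. None of the 46 passed an adjusted p of 0.05 in edgeR, and 1 of them (Sox5) an unadjusted one, which 2.15% of all genes tested did. In 4 of the 46 the genotypes did not overlap, against 7.46% of all genes tested: KO values were lower for Sox5 and Plod1 and higher for the collagen galactosyltransferase Colgalt1 and the procollagen N-proteinase Adamts3. Sox5, which acts with Sox9 on cartilage genes such as Col2a1, was at 61.4, 63.4 and 56.2 CPM in heterozygous replicates 1, 2 and 3 and 54.1, 46.1 and 37.0 CPM in KO replicates 1, 2 and 3. All its KO values lay below all heterozygous ones (log2 fold change -0.41, SE 0.17, unadjusted p = 0.0345, adjusted p = 1.00 in edgeR). Sox9 was level, at 44.6 to 50.8 CPM in the 6 libraries, and Sox6 had a log2 fold change of 0.02 (SE 0.26). The study reported Sox9, Sox5 and Sox6 as unchanged in its KO embryos, from its own test of the same RNA sequencing. The next smallest p-values of the list in edgeR, all over 0.05, belonged to Mia3, which loads procollagen into export carriers (log2 fold change -0.29, unadjusted p = 0.0666), to P4ha2, a prolyl 4-hydroxylase subunit (-0.31, unadjusted p = 0.0851), and to Plod1, a lysyl hydroxylase (-0.29, unadjusted p = 0.125). Plod1 was at 36.9, 34.8 and 37.9 CPM in heterozygous and 27.3, 27.8 and 33.9 CPM in KO replicates. Colgalt1 was at 77.1, 73.3 and 76.6 CPM in heterozygous and 83.5, 82.8 and 86.9 CPM in KO replicates (log2 fold change 0.16, SE 0.12, unadjusted p = 0.230 in edgeR), and Adamts3 at 16.6, 18.2 and 17.5 CPM and 22.3, 20.3 and 21.8 CPM (0.31, SE 0.20, unadjusted p = 0.162 in edgeR).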

How the data were processed

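RNA from FACS-sorted E10.5 thoracic LPMs was sequenced by the study from SMARTer libraries on a NextSeq-500, and the authors mapped and counted reads in CLC with an Ensembl annotation. The methods name mm10 and the labels mm9. Gene coordinates equalled GENCODE M21 on mm10 for 43 of 44 collagen genes. The deposited counts, 1 whole number per gene and library, were used for all main tests, and the RPKM the authors deposited for levels per length, chain ratios and an alternative test. The authors' columns of quantile-normalized values, fold changes and p-values were not used. The 10891 of 49585 genes that reached 10 counts in 3 or more libraries were tested with edgeR 4.0.16 in R 4.3.3 (TMM, quasi-likelihood, genotype only, Benjamini-Hochberg), with thresholds of 0.05. TMM factors lay between 0.970 and 1.035 and the common biological coefficient of variation was 0.173. CPM were counts over TMM-scaled library sizes. Alternatives used DESeq2 1.42.0, limma 3.58.1 (voom, or log2 RPKM with pseudocounts of 1 and 0.1), library size alone, upper quartile factors, no count minimum, 10 counts in every library, a replicate block, each library left out and, chosen after seeing the data, loess offsets on transcript length and GC content. Scripts were tested on simulated counts. The members, classes and gene lists were chosen with earlier results of these data known. Genes given library by library were those with a mean of at least 20 CPM in either genotype, the type I, III and VI chains past the minimum and the 3 of smallest p in each direction. Of the biosynthesis list, the genes with an unadjusted p of up to 0.05 and the 4 of smallest p were named, and Serpinh1, P4hb, Sox9, Sox6, Colgalt1 and Adamts3 were chosen after their values were seen.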

Additional observations from a re-analysis of the deposited data

How the results depend on the processing

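The call that no gene passed an adjusted p of 0.05 held under DESeq2, limma-voom, both other scalings, 10 counts in every library and both offsets. It did not hold without a count minimum (38 genes), on log2 RPKM with a pseudocount of 1 (1 gene) or 0.1 (5 genes) or with a replicate block (2 genes), and it was 0 to 1 with a library left out. Genes at an unadjusted p of up to 0.05 numbered 234 in edgeR, 125 in DESeq2, 571 without a minimum, 71 and 61 on RPKM with pseudocounts of 1 and 0.1, 493 with the replicate block and 127 to 756 with a library left out. Collagen genes lower in KO at that threshold numbered 1 with all libraries, 2 without a minimum, 0 and 0 on RPKM, 3 with the block (Col1a1, Col11a1 and Col16a1) and 0 to 5 with a library left out, and those higher in KO 0 to 1. Replicates of equal number deviated together with r = 0.43, 0.19 and 0.01, and replicates of unequal number with r = -0.34 to 0.13. The main test took no pairs because the labels mark none. Whether equal numbers share a sample effect cannot be told from the labels. Of the 23 collagen genes given library by library, 18 changed sign in at least 1 fit with a library left out. Only 5 kept 1 sign in all settings. In the other settings, 5 genes near 0 changed sign. Col1a2 went from 0.00 to -0.031 in limma-voom, -0.0086 without a minimum, -0.068 and -0.082 on RPKM and -0.029 with the block. Col27a1 went from 0.00 to -0.030 in limma-voom, -0.0082 without a minimum, -0.00078 with 10 counts in every library and -0.014 and -0.0056 on RPKM. Col3a1 was 0.0053 with the length and GC offset, and Col4a1 was 0.0077 with upper quartile factors and 0.034 and 0.064 with the length and the length and GC offsets. Col4a6 was 0.0047 in DESeq2, 0.23 in limma-voom, 0.046 and 0.22 on RPKM, 0.22 with the block and 0.035 and 0.062 with the offsets. With 1 library left out, the log2 fold change ran from -0.54 to 0.032 for Col12a1, -0.44 to 0.25 for Col14a1, -0.37 to 0.35 for Col18a1, -0.25 to 0.21 for Col1a2, -0.090 to 0.33 for Col23a1, -0.10 to 0.020 for Col26a1, -0.24 to 0.27 for Col27a1, -0.11 to 0.35 for Col2a1 and -0.24 to 0.24 for Col3a1. It ran from -0.22 to 0.16 for Col4a1, -0.42 to 0.012 for Col4a2, -0.56 to 0.23 for Col4a5, -0.36 to 1.07 for Col4a6, -0.65 to 0.22 for Col5a1, -0.40 to 0.13 for Col5a2, -0.35 to 0.53 for Col6a1, -0.12 to 0.55 for Col6a2 and -0.40 to 0.42 for Col6a3. Some of these fits also differed in the samples used or in the number of genes tested, and the cause of the changes was not tested. Low counts per gene limit Col7a1, Col8a2, Col15a1, Col22a1 and the 15 genes below the minimum.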
